A study of Bos taurus with 30 samples.

Results

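The 9 genes described here are C1QA, C1QB, C1QC, CD14, MSR1, FCGR2B, TYROBP, SPP1 and PLEK, followed through the corpus luteum before and after prostaglandin F2α (PGF2α). They were found by gene symbol in the annotation of the array, and the set was drawn up with earlier results of these data known, so the counts of members beside those of all genes are descriptions. They are 9 of 9155 genes that the array named, and they were measured by 13 of 24016 probe sets, the groups of short probes that each report 1 transcript. CD14 and PLEK had 2 probe sets each and MSR1 had 3. The corpus luteum is a short-lived ovarian gland, built from the ovulated follicle, that makes progesterone, and PGF2α is the hormone that ends its life in a mature cycle. Tissue came from 30 Angus crossbred heifers in 6 groups of 5, at 2 stages of the estrous cycle, day 4 and day 11. Within each day, 5 heifers had received saline and were the 0 h controls, 5 were sampled 4 h after PGF2α and 5 were sampled 24 h after it. Each heifer gave RNA for 1 Affymetrix GeneChip Bovine Genome Array, so a replicate is an animal.

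C1q is the part of the complement system that recognises its target. It is built from 3 kinds of chain, the products of C1QA, C1QB and C1QC, it binds antibody complexes and dying cells, and tissue macrophages are its main source. Macrophages and other leukocytes are found in the corpus luteum through the cycle, and the regressing gland is known for the macrophages that clear its dying cells. Of the other members, CD14, MSR1, FCGR2B and TYROBP encode membrane proteins of myeloid cells. SPP1 encodes the secreted protein osteopontin, which cells other than macrophages also make, and PLEK encodes pleckstrin, which lies inside platelets and leukocytes. The name macrophage surface genes therefore fits 4 of the 9 by the location of their proteins. In the RefSeq annotation of assembly ARS-UCD2.0 the 3 C1q genes lie next to each other, between EPHB2 and EPHA8, with LOC112443416 between C1QB and C1QC. FCGR2B lies beside FCGR3A, and TYROBP lies beside HCST.

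All values are log2 signals, so a difference of 1 is a doubling. They compare groups for 1 probe set and do not rank genes by level. Of 12 luteal cell markers, STAR, which carries cholesterol into mitochondria, had group means of 12.15 to 13.60, and CYP11A1, which opens steroid synthesis, of 12.75 to 13.47. LHCGR, the receptor for luteinizing hormone, had group means of 5.67 to 7.92, and PRLR, the prolactin receptor, was dim on day 4, at 3.95 to 4.13, and had group means of 6.84 to 7.81 on day 11. Array medians lay between 6.01 and 6.16 and arrays of a group correlated at 0.978 to 0.994 across probe sets. Day 11, 4 h replicate 1 differed from its group in RNA integrity controls, with a 3′ minus 5′ difference of the GAPDH control probe sets of 0.09, where the median of its group was 0.45, and of the EF1A control probe sets of -1.40, where that median was -2.31. Leaving out any 1 array of day 11, 4 h or day 11, 0 h, that replicate included, left 5 members called in the comparison of day 11 at 4 h with 0 h.

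The members followed different courses. The 3 C1q genes were set apart by the day of the cycle, with higher signals on day 11 than on day 4 at each time, and were not called at 4 or 24 h after PGF2α on either day, though C1QA at 24 h on day 11 was near the threshold and passed it under 2 other fits. CD14, MSR1, FCGR2B and TYROBP were not called between the days at 0 h and all rose by 24 h after PGF2α on day 11. PLEK rose within 4 h on both days and was near its 0 h level again by 24 h on day 4. SPP1 rose on both days, and by more on day 11 at 24 h.

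**Figure D1:**
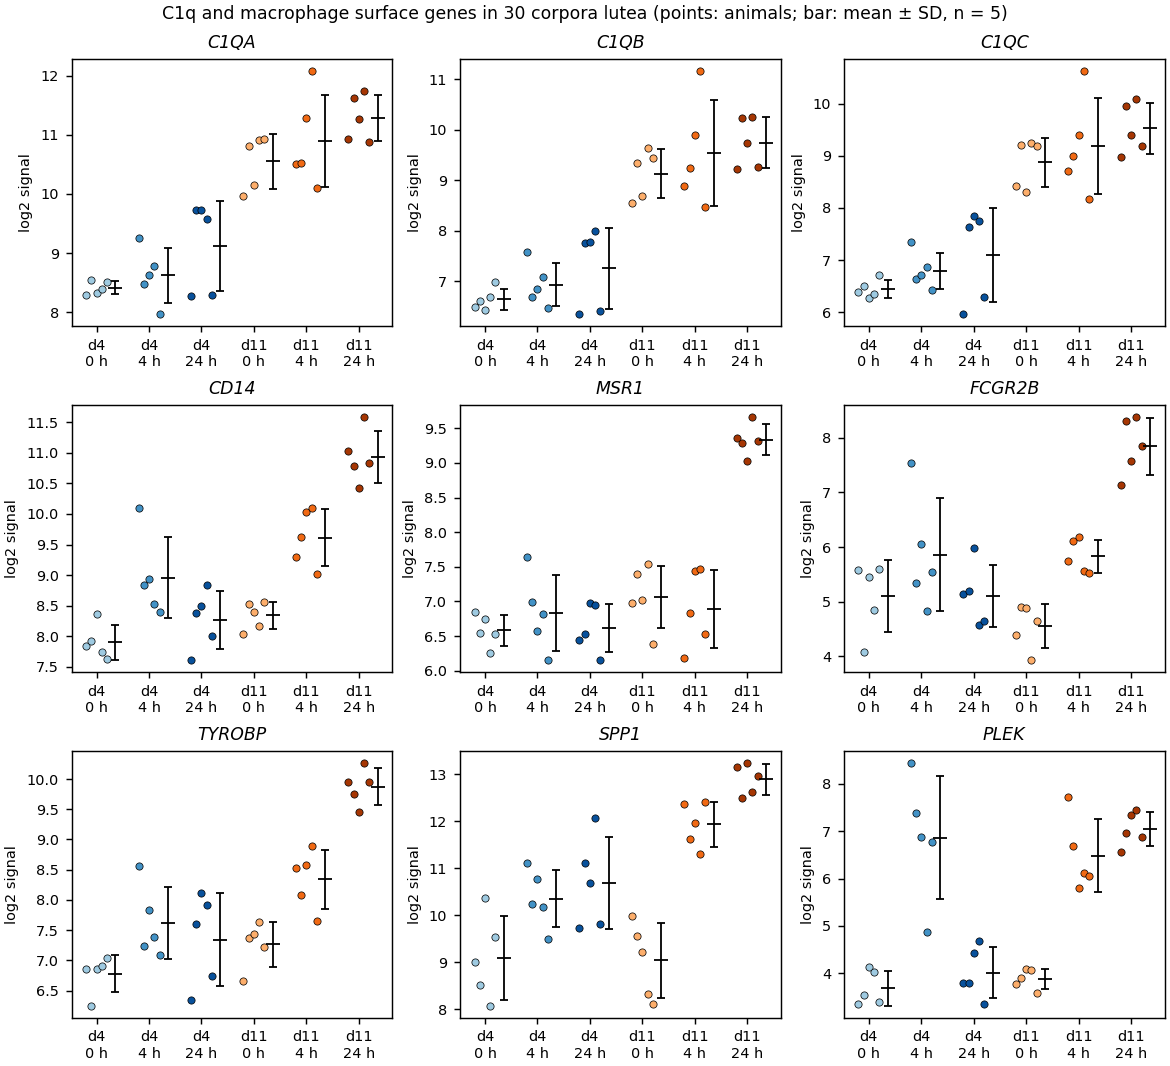
Log2 signal of the 9 genes (1 panel a gene, representative probe set) in the 6 groups, with d4 and d11 for the day of the cycle; points are the 5 animals of a group, and the bars beside them are the mean ± SD. The day 11 points of C1QA, C1QB and C1QC lie above all day 4 points, while those of MSR1 stand alone on day 11 at 24 h, from 9.03 to 9.67.

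Counting members against all genes put these courses beside the size of each response. A gene was called when the adjusted p of limma, over all probe sets, was under 0.05, and each gene was represented by its probe set of highest mean signal. On day 4 at 4 h, 2 of 9 members were higher than at 0 h, against 3.29% of all genes, and their median difference was 0.75. On day 4 at 24 h, 1 of 9 was higher, against 3.03% of all genes. On day 11 at 4 h, 5 of 9 were higher, against 10.1% of all genes, with a member median of 1.08. On day 11 at 24 h, 6 of 9 were higher, against 17.9% of all genes, with a member median of 2.60. No member was lower in these 4 comparisons, where 1.99%, 4.73%, 13.1% and 20% of all genes were lower, in the same order. The median over all genes lay between -0.04 and 0.00 in each. Within a day the 4 h and 24 h responses share the same 0 h animals.

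At 0 h, 3 of 9 members were higher on day 11 than on day 4, against 17.9% of all genes, and none was lower, against 26.5%. The counts in the gene lists that follow stand beside these same shares of all genes. Between 4 and 24 h on day 4, 1 member was lower, against 9.84% of genes, and on day 11, 4 members were higher, against 16.2% of genes. By the interaction in limma, 0 of 9 members were called for a difference between the days in the 4 h response, against 1.4% of genes in either direction. Of the 9, SPP1 had the lowest adjusted p for that difference (limma, adjusted p = 0.21). The 24 h response was larger on day 11 for 6 of 9, against 14.8% of genes, and for 9 of the 13 probe sets, against 10.6% of all probe sets.

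**Figure D2:**
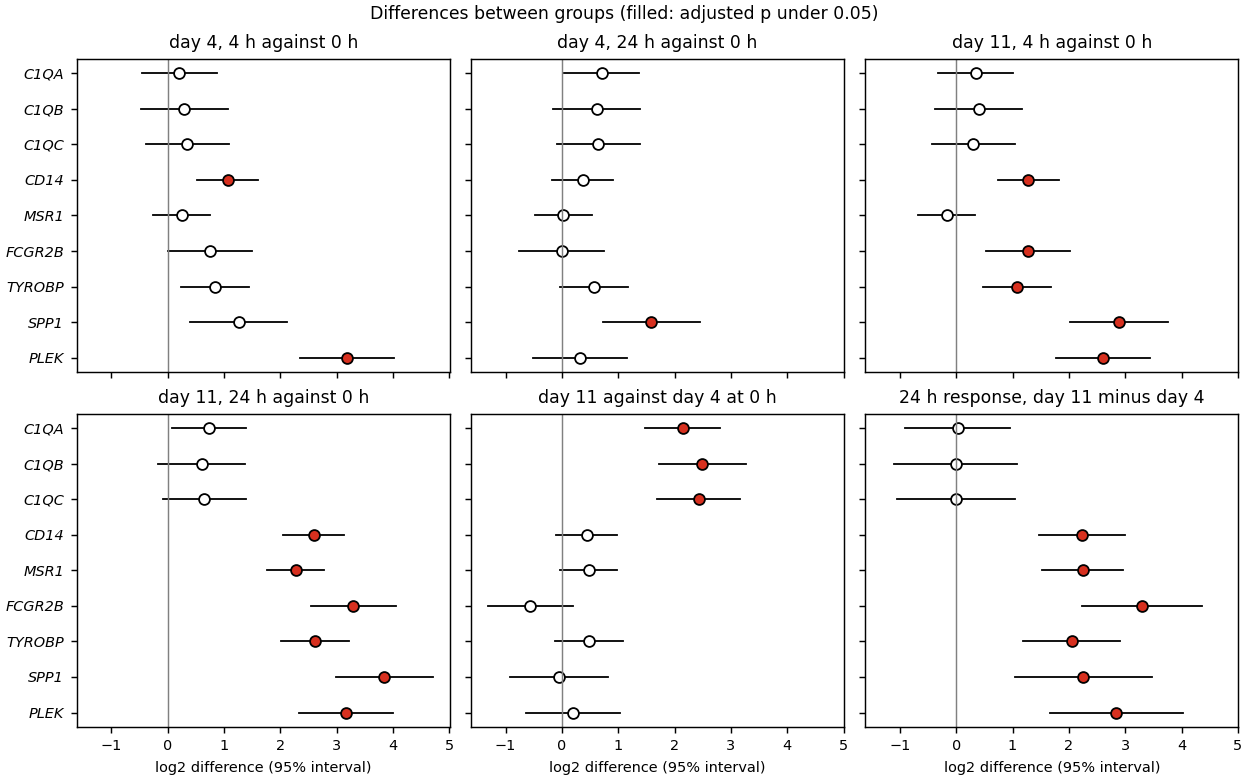
Log2 differences between groups for each of the 9 genes, with 95% intervals from limma; filled points passed an adjusted p of 0.05. The 3 C1q genes are filled in the comparison of the days at 0 h, and the other 6 genes in that of day 11 at 24 h with 0 h.

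The chains of C1q were compared first. On day 4 the C1QA (Entrez Gene 534961) signals of replicates 1 to 5 were 8.29, 8.54, 8.32, 8.40 and 8.51 at 0 h, 9.25, 8.48, 8.63, 8.78 and 7.97 at 4 h, and 8.27, 9.73, 9.73, 9.57 and 8.29 at 24 h. On day 11 they were 9.96, 10.81, 10.14, 10.92 and 10.93 at 0 h, 10.50, 10.53, 11.28, 12.08 and 10.10 at 4 h, and 10.93, 11.63, 11.26, 11.74 and 10.88 at 24 h. Every day 11 animal was above every day 4 animal. At 0 h C1QA was 4.41-fold higher on day 11, a log2 difference of 2.14 ± 0.32 (SE, adjusted p = 6.3e-06).

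C1QB (617435) had values of 6.49, 6.61, 6.43, 6.68 and 6.97 in the day 4 controls and 8.55, 9.33, 8.68, 9.64 and 9.44 in the day 11 controls, without overlap. The difference was 2.49 ± 0.38 (SE), or 5.62-fold (adjusted p = 6.6e-06). C1QC (509968) had values of 6.38, 6.50, 6.28, 6.36 and 6.72 on day 4 and 8.42, 9.20, 8.31, 9.25 and 9.19 on day 11 at 0 h, again without overlap, and differed by 2.42 ± 0.36 (SE), or 5.37-fold (adjusted p = 5e-06). The gap between the days was of like size later on. At 4 h the C1q genes and SPP1 were the 4 of 9 members that were higher on day 11, against 16.1% of genes. The C1q genes differed by 2.28, 2.60 and 2.38 at 4 h and at 24 h by 2.17, 2.48 and 2.42, in the order C1QA, C1QB and C1QC.

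After PGF2α the C1q means were above those at 0 h on both days, by differences that were not called and were uneven between animals. The differences at 4 h were 0.21, 0.29 and 0.35 on day 4 (adjusted p = 0.90, 0.86 and 0.79) and 0.35, 0.40 and 0.31 on day 11 (adjusted p = 0.53, 0.54 and 0.64). At 24 h they were 0.71, 0.62 and 0.65 on day 4 (adjusted p = 0.24, 0.44 and 0.37). The 95% intervals there were 0.05 to 1.37, -0.15 to 1.39 and -0.09 to 1.39. On day 11 at 24 h they were 0.74, 0.61 and 0.65, with adjusted p of 0.09, 0.26 and 0.20. C1QA was called there with the replicate number as a block (adjusted p = 0.049) and in a fit to the arrays of that comparison alone (adjusted p = 0.032). The 95% intervals on day 11 at 24 h ran from 0.07 to 1.40 for C1QA, from -0.16 to 1.38 for C1QB and from -0.09 to 1.38 for C1QC. The 24 h response of day 11 minus that of day 4 had intervals of -0.91 to 0.96, -1.10 to 1.08 and -1.04 to 1.04.

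Single animals moved all 3 chains together. At 24 h on day 4 C1QB was 7.75, 7.78 and 7.99 in replicates 2, 3 and 4, above the highest control, but 6.35 and 6.41 in replicates 1 and 5, below the lowest control. C1QC was 7.63, 7.84 and 7.76 in the former animals and 5.97 and 6.30 in the latter. In the day 11, 4 h group replicate 4 was highest, with 12.08 for C1QA, 11.15 for C1QB and 10.62 for C1QC. The mean deviation of the 3 genes from their group means was 1.41 in that animal.

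Other complement genes were compared in the same way. Of 29 measured genes of the classical pathway and its regulators, without the C1q genes, 14 were higher and 2 lower on day 11 at 0 h, with a list median of 0.43, and the median over all genes was -0.02. C1S and C1R, the proteases that join C1q in the C1 complex, were higher by 1.98 (adjusted p = 1.1e-05) and 1.17 (adjusted p = 0.00044). VSIG4, a complement receptor of tissue macrophages, was higher by 1.81. On day 11 at 24 h, 10 of 29 rose and 5 fell, with a list median of 0.10. VSIG4 rose by 1.74, C7, a part of the membrane attack complex, by 1.44, and C3, the central component, by 1.14. At 4 h, 1 of 29 rose on each day. It was CFD, the protease of the alternative pathway, by 1.14 on day 4 and 1.08 on day 11, and on day 11 C5 and C6, which act late in the cascade, were among 3 genes that fell, by 0.76 each.

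The membrane receptors and their adaptor behaved differently from C1q. CD14 (281048) is the co-receptor that hands bacterial lipopolysaccharide to TLR4 on monocytes and macrophages. On day 4 its signals in replicates 1 to 5 were 7.84, 7.91, 8.37, 7.74 and 7.63 at 0 h, 10.09, 8.84, 8.94, 8.53 and 8.40 at 4 h, and 7.61, 8.38, 8.50, 8.84 and 8.0 at 24 h. On day 11 they were 8.03, 8.52, 8.40, 8.17 and 8.56 at 0 h, 9.30, 9.62, 10.03, 10.09 and 9.02 at 4 h, and 11.04, 10.79, 10.42, 11.59 and 10.83 at 24 h. The 4 h values lay above the controls on both days, and on day 11 those at 24 h lay above those at 4 h.

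CD14 rose by 1.06 ± 0.26 (SE, adjusted p = 0.016) at 4 h on day 4. This call was lost without day 4, 4 h replicate 1, the animal with the highest value (0.78, adjusted p = 0.076). The difference at 24 h on day 4 was 0.37 (adjusted p = 0.54). On day 11 CD14 rose by 1.28 ± 0.26 (SE, adjusted p = 0.00088) at 4 h and by 2.60 ± 0.26 (SE, adjusted p = 9.9e-09), or 6.05-fold, at 24 h. Its 24 h response was larger on day 11 by 2.23 ± 0.37 (SE, adjusted p = 5.1e-05). The other probe set of CD14 gave 1.11 and 0.13 on day 4 and 1.40 and 2.92 on day 11, at 4 and 24 h, with the same calls. Between 4 and 24 h on day 4 it fell by 0.98 (adjusted p = 0.0075), where the representative probe set gave -0.69 (adjusted p = 0.078).

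The partners of CD14 in lipopolysaccharide sensing were compared next. Of 15 measured genes of the receptor complex and the Toll-like receptors 3 rose on day 11 at 24 h and none fell, with a list median of 0.09, where 17.9% of all genes rose. TLR2 and TLR4, receptors for bacterial lipoproteins and lipopolysaccharide, rose by 1.88 and 1.16, and IRAK4, a kinase below them, by 0.53. At 4 h on day 4, where 3.29% of all genes rose, TLR2 and TLR4 were the 2 of 15 called, at 1.11 and 0.73, and TLR2 was the 1 gene called on day 11 at 4 h, at 0.96. No gene of the list was called on day 4 at 24 h (limma).

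MSR1 (281311), the class A scavenger receptor that takes up modified lipoproteins and bacterial products, had a high signal in 1 group alone. On day 4 its values were 6.84, 6.55, 6.75, 6.26 and 6.54 at 0 h, 7.64, 6.99, 6.57, 6.82 and 6.16 at 4 h, and 6.45, 6.53, 6.97, 6.95 and 6.16 at 24 h. On day 11 they were 6.97, 7.40, 7.02, 7.55 and 6.39 at 0 h, 6.18, 6.84, 7.45, 7.47 and 6.53 at 4 h, and 9.37, 9.29, 9.03, 9.67 and 9.32 at 24 h. The 5 animals of day 11 at 24 h lay above all other animals, whose groups overlapped.

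MSR1 rose on day 11 at 24 h by 2.27 ± 0.25 (SE, adjusted p = 3.2e-08), or 4.82-fold, and the difference at 4 h was -0.17 (adjusted p = 0.71). On day 4 the differences were 0.25 (adjusted p = 0.78) at 4 h and 0.03 (adjusted p = 0.98) at 24 h. The later response was larger on day 11, by 2.24 ± 0.35 (SE, adjusted p = 2e-05). Its dimmer probe sets also rose on day 11 at 24 h, by 1.47 and 1.19. In the controls, 1 of these was higher on day 11 by 0.53 (adjusted p = 0.0069), where the representative probe set gave 0.48 (adjusted p = 0.15) and the dimmest gave 0.09 (adjusted p = 0.68).

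Of 18 other scavenger receptors and receptors for dying cells 11 rose and 1 fell on day 11 at 24 h, with a list median of 0.63. OLR1, a receptor for oxidised lipoprotein, rose by 2.41, MERTK, a kinase receptor that binds coated dying cells, by 2.35 and CD36, a receptor for lipids and modified lipoproteins, by 2.33. OLR1 and MERTK were called at 4 h as well, where MSR1 was not, by 2.48 and 0.88 on day 4 and by 3.91 and 1.42 on day 11. At 24 h on day 4, 2 of 18 rose, SCARB2 by 0.43 and SCARB1 by 0.35. At 0 h, 7 of 18 were higher and 1 lower on day 11, among them CD36 by 2.90.

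FCGR2B (282229), the inhibitory receptor for the constant part of IgG, carries a signalling motif that dampens activation. Its values on day 4 were 5.58, 4.07, 5.45, 4.85 and 5.60 at 0 h, 7.53, 5.35, 6.06, 4.84 and 5.54 at 4 h, and 5.15, 5.19, 5.98, 4.57 and 4.65 at 24 h. Those on day 11 were 4.39, 4.91, 4.88, 3.94 and 4.64 at 0 h, 5.75, 6.12, 6.18, 5.57 and 5.53 at 4 h, and 7.13, 8.30, 7.58, 8.38 and 7.85 at 24 h. The day 11 groups formed 3 steps without overlap, while the day 4 groups overlapped, with replicate 1 highest at 4 h.

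On day 11 FCGR2B rose by 1.28 ± 0.37 (SE, adjusted p = 0.014) at 4 h and by 3.29 ± 0.37 (SE, adjusted p = 4.4e-08), or 9.81-fold, at 24 h. On day 4 it differed by 0.75 (adjusted p = 0.34) at 4 h and by 0.00 (adjusted p = 1) at 24 h, where the interval ran from -0.75 to 0.75. Between the days the 24 h response differed by 3.30 ± 0.52 (SE, adjusted p = 2.2e-05). At 0 h the day 11 mean was lower, by a difference of -0.56 that did not pass (adjusted p = 0.26). That day 11 control mean, 4.55, was a dim signal, so the size of the day 11 folds is uncertain. FCGR2B has close paralogs among the IgG receptors, and whether its probes also bind their RNA was not checked, since probe sequences were not used here.

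TYROBP (282390), also called DAP12, is the adaptor that passes the signals of many activating myeloid receptors through its ITAM motif. On day 4 its values were 6.86, 6.25, 6.85, 6.91 and 7.04 at 0 h, 8.56, 7.24, 7.84, 7.39 and 7.09 at 4 h, and 6.35, 7.59, 8.12, 7.92 and 6.74 at 24 h. The day 11 values were 6.66, 7.37, 7.43, 7.64 and 7.22 at 0 h, 8.52, 8.08, 8.57, 8.90 and 7.65 at 4 h, and 9.95, 9.75, 9.46, 10.27 and 9.95 at 24 h. The day 11 groups did not overlap. On day 4 the 4 h values lay above the controls, and at 24 h replicates 2, 3 and 4 were the high ones, the same animals as for C1q.

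TYROBP rose on day 11 by 1.08 ± 0.29 (SE, adjusted p = 0.0098) at 4 h and by 2.61 ± 0.29 (SE, adjusted p = 5.6e-08), or 6.11-fold, at 24 h. On day 4 the differences of 0.84 at 4 h and 0.56 at 24 h did not pass (adjusted p = 0.12 and 0.33). Day 11 had the larger 24 h response, by 2.05 ± 0.42 (SE, adjusted p = 5e-04).

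Of 19 other Fc receptors and ITAM signalling genes 14 rose and none fell on day 11 at 24 h, with a list median of 1.00. TREM1, a receptor that signals through TYROBP, rose by 2.77, FCGR1A, the high-affinity IgG receptor, by 2.37 and FCER1G, the common chain of Fc receptors, by 2.10. At 4 h on day 11, 9 of 19 rose, among them TREM1 by 1.71 and the kinases LYN by 1.30 and FGR by 1.22. On day 4, 2 rose at 4 h, LYN by 0.88 and FYN by 0.63, and none was called at 24 h. In the controls, 5 were higher and 1 lower on day 11, among them FCGR3A, the neighbour of FCGR2B, by 1.06 and FCGR1A by 0.72.

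SPP1 (281499) encodes osteopontin, a secreted protein that binds integrins and CD44 and draws macrophages. On day 4 its values were 9.0, 8.51, 10.36, 8.08 and 9.53 at 0 h, 11.10, 10.24, 10.77, 10.17 and 9.50 at 4 h, and 9.73, 11.11, 10.69, 12.08 and 9.81 at 24 h. On day 11 they were 9.98, 9.56, 9.22, 8.33 and 8.12 at 0 h, 12.37, 11.62, 11.95, 11.31 and 12.42 at 4 h, and 13.15, 12.49, 13.24, 12.61 and 12.95 at 24 h. The groups overlapped on day 4, where replicate 3 was the highest control, and did not overlap on day 11.

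SPP1 rose by 1.59 ± 0.42 (SE, adjusted p = 0.023), or 3.00-fold, on day 4 at 24 h, the 1 member called there. The call was lost in a fit to the arrays of that comparison alone (adjusted p = 0.11). It was also lost without day 4, 0 h replicate 1, 2 or 4 (adjusted p = 0.053, 0.058 and 0.088) or without day 4, 24 h replicate 2 or 4 (adjusted p = 0.077 and 0.13). At 4 h on day 4 the difference was 1.26 (adjusted p = 0.095), which passed without day 4, 0 h replicate 3 (1.58, adjusted p = 0.032).

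On day 11 SPP1 rose by 2.89 ± 0.42 (SE, adjusted p = 1.2e-05), or 7.41-fold, at 4 h and by 3.85 ± 0.42 (SE, adjusted p = 3.4e-08), or 14.4-fold, at 24 h. The days differed in the 24 h response by 2.26 ± 0.60 (SE, adjusted p = 0.0058). The 4 h response differed by 1.63 ± 0.60 (SE), which did not pass (adjusted p = 0.21). At 0 h the days differed by -0.05 (adjusted p = 0.95).

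Of 8 measured osteopontin receptors 3 rose on day 11 at both 4 and 24 h. CD44, which also binds hyaluronan, rose by 1.81 and 2.99, and the integrin chains ITGB3 and ITGAV rose by 1.10 and 0.99 at 4 h and by 1.80 and 1.76 at 24 h. On day 4 CD44 was the 1 receptor that rose at 4 h, by 1.34, and none was called at 24 h. In the controls, 4 of 8 were lower and 1 higher on day 11, with ITGAV at -1.10.

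PLEK (518658) encodes pleckstrin, a substrate of protein kinase C in platelets and leukocytes. Its day 4 values were 3.34, 3.53, 4.14, 4.02 and 3.39 at 0 h, 8.45, 7.39, 6.87, 4.87 and 6.76 at 4 h, and 3.79, 3.80, 4.42, 4.68 and 3.34 at 24 h. The day 11 values were 3.78, 3.90, 4.09, 4.06 and 3.58 at 0 h, 7.73, 6.69, 5.80, 6.12 and 6.07 at 4 h, and 6.56, 6.97, 7.35, 7.46 and 6.88 at 24 h. On both days all 4 h values lay above the controls, with replicate 4 of day 4 lowest, and at 24 h the day 11 animals stayed high while the day 4 animals overlapped the controls.

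PLEK rose at 4 h by 3.18 ± 0.41 (SE, adjusted p = 8.4e-06), or 9.09-fold, on day 4 and by 2.60 ± 0.41 (SE, adjusted p = 3.2e-05), or 6.07-fold, on day 11. The difference between these responses, day 11 minus day 4, was -0.58, with an interval of -1.76 to 0.60. From 4 to 24 h PLEK fell by 2.86 ± 0.41 (SE, adjusted p = 1.7e-05) on day 4, and its difference on day 11 was 0.56 (adjusted p = 0.38). The 24 h response was 3.16 ± 0.41 (SE, adjusted p = 5.2e-07) on day 11 and 0.32 (adjusted p = 0.79) on day 4. These responses differed by 2.84 ± 0.58 (SE, adjusted p = 0.00048). The control means of 3.68 and 3.88 were among the dim signals of the array, so the size of these folds is uncertain.

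The dimmer probe set of PLEK gave smaller values. It rose by 1.26 (adjusted p = 0.0043) at 4 h on day 4, and by 0.82 (adjusted p = 0.018) at 24 h on day 11. Its differences of 0.61 at 4 h on day 11 (adjusted p = 0.12) and of 0.72 between the 24 h responses (adjusted p = 0.19) did not pass. Of 10 measured partners of pleckstrin in platelet and leukocyte signalling 6 rose and 1 fell on day 11 at 24 h, among them FERMT3, an activator of integrins, by 2.23 and PRKCD, a protein kinase C, by 1.10. PRKCD was the 1 partner that rose on day 4 at 4 h, by 0.65.

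**Figure D3:**
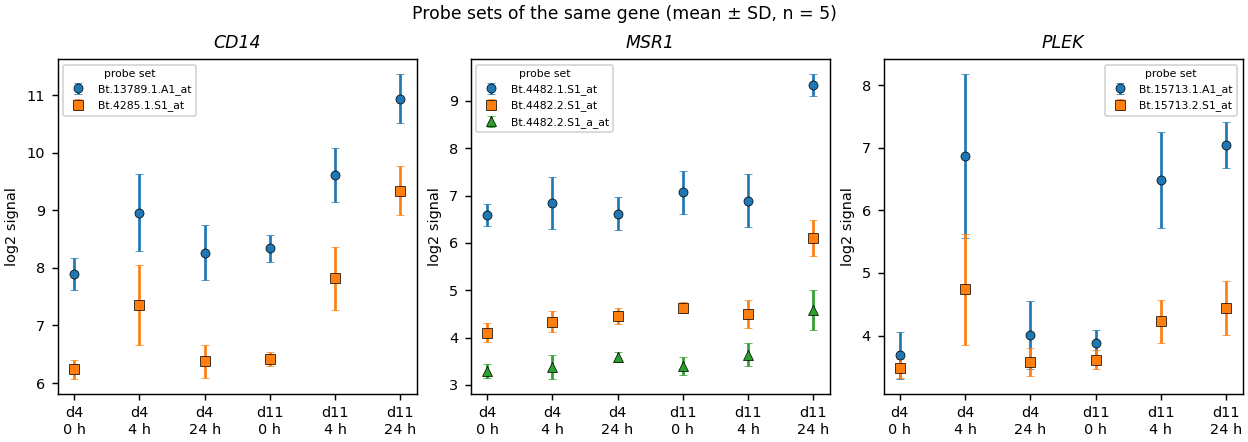
Log2 signal of every probe set of CD14, MSR1 and PLEK in the 6 groups (mean ± SD, n = 5). The probe sets of CD14 run side by side, those of MSR1 rise together on day 11 at 24 h, and the brighter probe set of PLEK has the larger steps.

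The order of the 6 group means summed up the courses. For each C1q gene the means ran, from the top, day 11 at 24, 4 and 0 h and then day 4 at 24, 4 and 0 h, and the only neighbours that differed were day 11 at 0 h and day 4 at 24 h, by 1.44 for C1QA (adjusted p = 0.002). For CD14, MSR1, FCGR2B and TYROBP day 11 at 24 h came first and was the only group that differed from the next one in order. The next group was day 11 at 4 h for CD14 and TYROBP, day 11 at 0 h for MSR1 and day 4 at 4 h for FCGR2B. For SPP1 the break lay between day 11 at 4 h and day 4 at 24 h (1.25, adjusted p = 0.023). For PLEK it lay between the 3 highest groups, day 11 at 24 h, day 4 at 4 h and day 11 at 4 h, and the other 3 (2.48, adjusted p = 2.9e-05). At 24 h all 9 members were higher on day 11 than on day 4 without overlap, against 14.5% of all genes, by 2.17 for C1QA to 3.04 for PLEK.

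Animals of 1 group also differed in ways that tied some members together. Over the deviations of the 30 arrays from their group means, the C1q genes correlated at 0.97 to 0.98 with each other, TYROBP at 0.73 to 0.76 with them and at 0.77 with CD14. SPP1 correlated at 0.01 to 0.07 with the C1q genes and PLEK at 0.10 to 0.14. These are descriptions over 30 animals, with no test, and the genes compared were read from the same array and RNA sample of each animal. In the day 4, 4 h group replicate 1 was above its group mean for all 9 members, by 0.97 on average. So were day 4, 24 h replicate 3, by 0.50, and day 11, 0 h replicate 2, by 0.26. Replicate 5 of day 4 was above it for no member at 4 h or at 24 h, with mean deviations of -0.51 and -0.64.

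**Figure D4:**
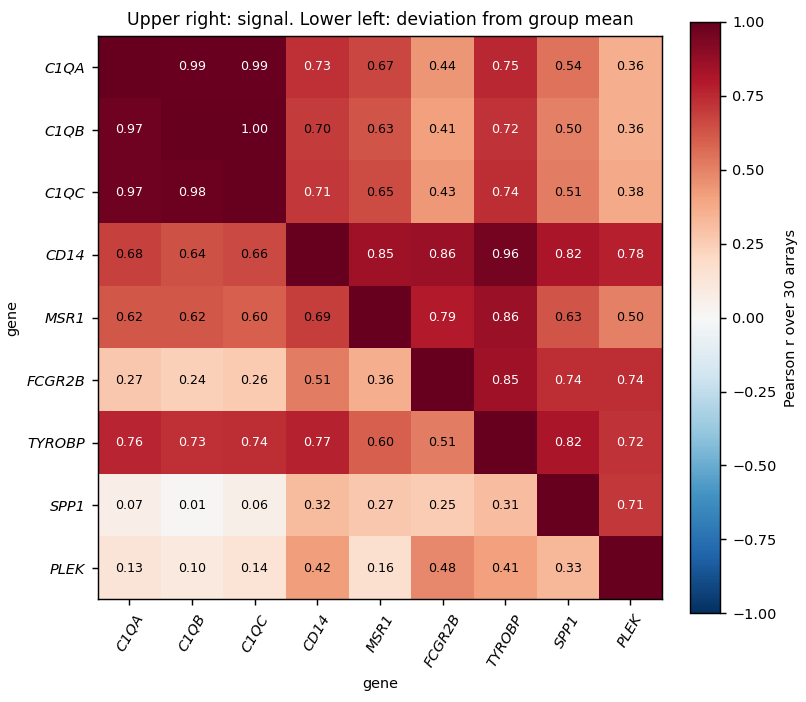
Pearson correlation of the 9 genes over the 30 arrays, of the signal (upper right) and of its deviation from the group mean (lower left). The C1q genes form a block in both parts, from 0.97 to 1.00, while SPP1 and PLEK have weak correlations with it in the lower left.

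The genes most like each member were drawn from all named genes, by the correlation over the 30 arrays, which shares the 6 groups. For C1QA, C1QB and C1QC they were B2M, the light chain of MHC class I (r = 0.953, 0.963 and 0.955), NPC2, which moves cholesterol out of lysosomes, and CST3, a protease inhibitor. TYROBP was closest to FERMT3 (r = 0.982), IRF5, a transcription factor of myeloid cells (r = 0.976), and ITGB2, the common chain of leukocyte integrins (r = 0.973). CD14 was closest to IRF5 and LCP1, an actin bundling protein of leukocytes (r = 0.959 for both), and then FERMT3. MSR1 was closest to the lysosomal protease CTSC (r = 0.947), NPL and CTSK, and FCGR2B to EFHD2 (r = 0.913), LCP1 and CORO1A. By Spearman rank correlation the values of MSR1, high in 1 group alone, were lower, at 0.806 for CTSC, 0.642 for NPL and 0.798 for CTSK.

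SPP1 and PLEK had other neighbours. SPP1 was closest to PARM1 (r = 0.921), GAL, which encodes the neuropeptide galanin (r = 0.912), and NRG1, a growth factor (r = 0.886). PLEK was closest to IL1RN, the antagonist of interleukin 1 (r = 0.945), DAPP1 (r = 0.925) and PFKFB3, which speeds glycolysis (r = 0.92). Over deviations from group means AIF1, a macrophage protein, was the closest gene to C1QA (r = 0.879), C1QC (r = 0.891) and TYROBP (r = 0.931). CNDP2 was closest to C1QB (r = 0.892), TLR4 to CD14 (r = 0.849) and GRB2 to MSR1 (r = 0.79). BOLA-DRB3, a chain of MHC class II, was closest to FCGR2B (r = 0.77), BMP2 to SPP1 (r = 0.721) and BIRC3 to PLEK (r = 0.857). The Spearman rank correlation of BIRC3 with PLEK was lower, at 0.655.

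Other markers of macrophages were followed in the same animals, apart from the 9 members. In bulk tissue, fewer cells of a type and less RNA per cell cannot be told apart. Of 20 measured macrophage and monocyte markers 13 were higher and 1 lower on day 11 at 0 h, with a list median of 0.90. They included VSIG4, CYBB, the catalytic part of the phagocyte oxidase, by 1.58 and CD68, a lysosomal membrane protein, by 1.44. On day 11, 9 of 20 rose at 4 h and 16 at 24 h, with list medians of 0.78 and 1.54. At 24 h these included FCGR1A, NCF1, another part of the oxidase, by 2.31 and MPEG1, a pore protein of macrophages, by 2.28. CD86 and ITGAM were not called at 24 h, at 0.55 and 0.04, and ITGAM was dim in every group. FCGR3A and MS4A7 were not called there either, at -0.23 and -0.22. Both fell from 4 to 24 h, at -1.245 and -0.988 (limma, adjusted p = 0.0014 and 0.00026). The 9 of 4 h were led by NCF1 (1.78), CD53 (1.37) and FCER1G (1.21). They included ITGB2, the common chain of leukocyte integrins, by 0.95. The other markers were not called at 4 h on day 11. AIF1, MPEG1, LAPTM5 and CTSS were at 0.81, 0.79, 0.41 and 0.33. CSF1R, CD68, CYBB and ITGAM were at 0.23, 0.13, 0.04 and 0.02, and CD86, FOLR2 and VSIG4 at -0.095, -0.16 and -0.22. On day 4, 2 rose at 4 h, CD53 by 1.04 and NCF4 by 0.66, and none was called at 24 h (limma), where the list median was 0.46.

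The mean log2 level of the 20 macrophage markers per array ran from 6.14 to 6.43 in the day 4 controls, from 6.45 to 7.51 at 4 h and from 6.01 to 7.21 at 24 h. On day 11 it ran from 6.87 to 7.33 at 0 h, from 7.28 to 8.48 at 4 h and from 8.28 to 8.99 at 24 h. Lysosomal and lipid-handling genes, listed for their part in macrophages, were followed too. Which cells made them was not tested, and PLIN2 and PSAP had group means of 12.24 to 13.77 and 11.51 to 12.89. Of the 22 measured genes 20 rose and 1 fell on day 11 at 24 h, with a list median of 1.18. The rises were led by the fatty acid binding proteins FABP4 by 4.14 and FABP5 by 2.45 and by GPNMB, a membrane glycoprotein, by 2.49. LPL, a lipase, was the 1 that fell, from 11.52 at 0 h to 10.11. At 24 h on day 4, 5 of 22 rose, among them LPL by 1.10 and LGALS3, a lectin, by 0.88.

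Markers of other cells were followed beside the day 11 responses of CD14, MSR1, FCGR2B, TYROBP, SPP1 and PLEK, in which 10.1% of all genes rose at 4 h and 17.9% at 24 h. Of 14 neutrophil and eosinophil markers 6 rose at 4 h and 5 at 24 h, led by S100A12, a calcium-binding protein, by 2.95 and 5.97, and none fell. The list medians were 0.28 and 0.27. MPO, ELANE, CATHL1, CATHL2, CATHL4, PGLYRP1 and CCR3 were dim in every group, with group means of 3.19 to 4.36. The list medians and mean levels therefore rest in part on dim signals. The mean log2 level of these 14 ran from 4.53 to 5.08 at 0 h, from 5.39 to 6.17 at 4 h and from 5.59 to 6.10 at 24 h. Of 23 T and NK cell markers 2 rose at 4 h and 12 at 24 h, among them NKG7 by 2.32 and CD3G by 1.23. Their mean level ran from 4.74 to 4.92, from 4.82 to 5.53 and from 5.31 to 5.69. Of the 4 measured platelet markers 1 rose at 4 h and 2 at 24 h, with mean levels of 5.21 to 5.42, 5.71 to 6.77 and 6.28 to 6.67. Among these SELP, which tethers leukocytes to vessel walls, rose by 2.72 at 4 h, and PF4, a platelet chemokine, rose by 3.21 at 24 h. The day 11 group means at 0, 4 and 24 h were 5.23, 7.96 and 6.24 for SELP. For ITGA2B, another of the 4, they were 4.19, 4.22 and 4.07. Of 4 dendritic cell markers 2 rose at each time, among them CD83, an activation marker, by 2.60 at 4 h and CD1B, which presents lipids, by 3.01 at 24 h, with mean levels of 5.43 to 6.08, 6.40 to 6.99 and 6.66 to 7.10. Of 8 B cell and plasma cell markers 1 rose at 4 h and 3 at 24 h, with a list median of 0.38 at each time. At 24 h they included BLNK, an adaptor of the B cell receptor, by 2.15 and JCHAIN, which joins antibody units, by 1.34. The B cell markers CD79A and MS4A1 were dim, at 3.99 and 4.31 at 0 h and 4.26 and 4.47 at 24 h. Of 13 fibroblast and pericyte markers 2 rose and 1 fell at 4 h, and 2 rose at 24 h.

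Luteal cell markers moved the other way. On day 11 at 24 h, 11 of 12 fell, against 20% of all genes, with a list median of -0.86, and their mean level went from 11.32 to 11.55 at 0 h to 9.91 to 10.50. Of 18 endothelial markers 9 fell and 2 rose at 24 h, while at 4 h on day 11, 6 rose and 2 fell. Their mean levels were 7.75 to 7.91 at 0 h, 7.80 to 8.17 at 4 h and 7.44 to 7.60 at 24 h. The part of these cell types in the responses of the members was not tested.

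On day 4 at 4 h, 2 of 14 neutrophil and eosinophil markers rose, S100A12 by 1.94 and CXCR1, a chemokine receptor, by 1.88, beside the rises of CD14 and PLEK. The 0 h mean of CXCR1 was dim, at 4.18. The 14 markers had a list median of 0.14, and their mean level ran from 4.93 to 5.18 at 0 h and from 5.36 to 5.88 at 4 h. SELP rose by 1.58. Of 18 endothelial markers 4 rose and 1 fell, where 3.29% of all genes rose and 1.99% fell. Beside the rise of SPP1 on day 4 at 24 h, all 14 markers of dividing cells fell, with a list median of -1.48 and mean levels of 6.51 to 9.39, against 9.32 to 9.65 at 0 h. There 3 of 12 luteal cell markers rose, among them LHCGR by 1.15, 1 fibroblast and pericyte marker rose, 1 endothelial marker fell, and no macrophage, neutrophil, T or B cell marker was called (limma).

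Beside the C1q difference between the days at 0 h, all 14 markers of dividing cells were lower on day 11, with a list median of -2.78 and mean levels of 6.64 to 8.03 against 9.32 to 9.65 on day 4. In the same comparison 8 of 23 T and NK cell markers and 12 of 18 endothelial markers were higher, 2 endothelial markers were lower, and 7 of 12 luteal cell markers were higher and 2 lower. Of 13 fibroblast and pericyte markers 4 were higher and 6 lower, among them PDGFRA, a growth factor receptor, at -2.01. Of 4 dendritic cell markers 2 were lower, CD83 at -2.19 and FSCN1 at -0.42, and of 14 neutrophil and eosinophil markers 3 were higher and 3 lower. The part of these markers in the day 4 responses and in the differences between the days was not tested.

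**Figure D5:**
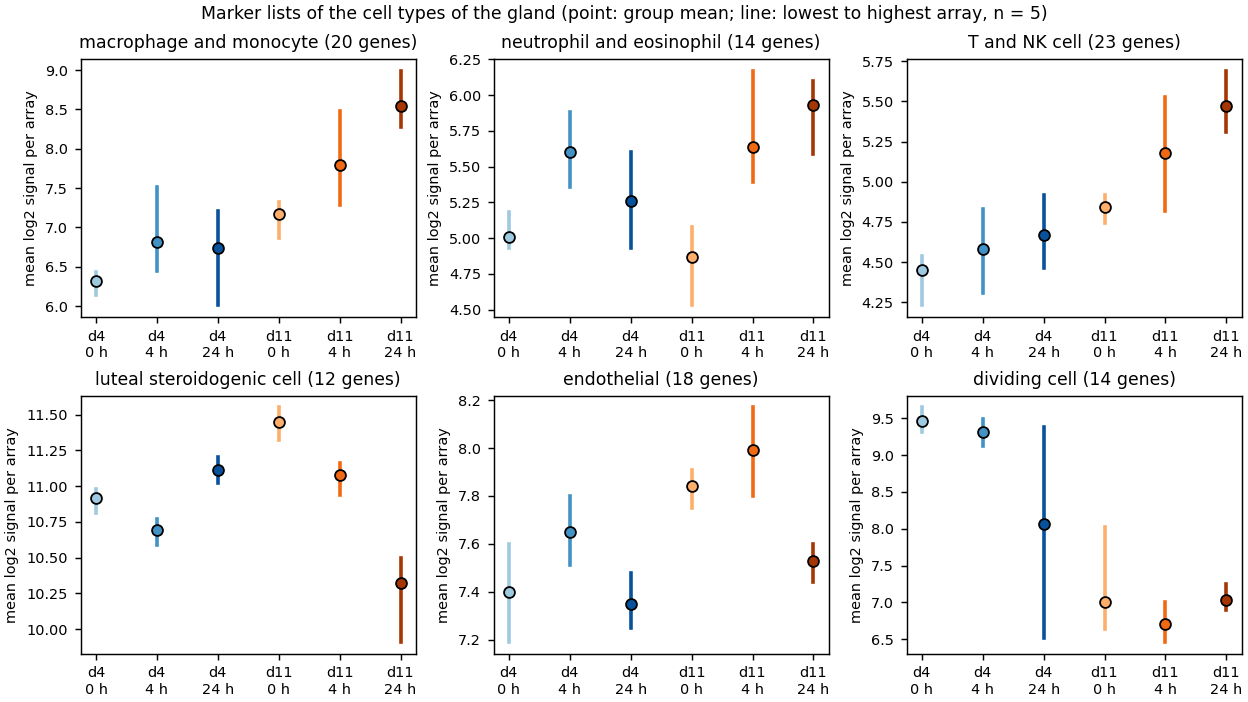
Mean log2 signal per array of 6 marker lists in the 6 groups; points are group means and lines run from the lowest to the highest of the 5 arrays. The macrophage and monocyte markers are highest on day 11 at 24 h, where the luteal cell markers are lowest.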

How the data were processed

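RNA of luteal tissue from 30 heifers was labelled as biotin cRNA for Affymetrix bovine arrays, per the labels' protocols. The authors deposited RMA values, per the submitters' processing notes, and these are log2 signals with 1 value per probe set and array. The version of RMA and the arrays normalized together are not given in the sources used here. RMA makes arrays alike in distribution, so a shift of all genes would not show.

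Of 24128 probe sets 112 controls were left out, and of the 24016 tested 13292 had exactly 1 symbol, 86 several and 10638 none. The genes without a symbol were not named. All 30 arrays were fitted in limma 3.58.1 (R 4.3.3), 1 mean for each group, with default eBayes moderation, which gave 24 residual degrees of freedom, 28.2 after moderation. Benjamini-Hochberg adjustment ran within a contrast over all probe sets, and calls were made at an adjusted p under 0.05. Differences carry the standard error (SE) of the fit and 95% intervals. The number of arrays, 5 a group, limits the precision. The fit was tested on simulated data with known changes.

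The members and the 19 gene lists (260 measured entries, 9 genes in more than 1 list) were chosen with earlier results of these data known. From each list and response the 3 called genes with the largest differences were eligible to be named, and for each member the 3 genes most like it. Other macrophage markers, and genes given by their levels, were named beyond this rule. The alternatives were array weights, quantile normalization, centring on array medians, robust moderation with a variance trend, a filter on the dimmest 30% of probe sets, the replicate number as a block, fits to only the arrays of each contrast, a call at an adjusted p under 0.01, the mean over a gene's probe sets, and leaving out each array. The filter on dim signals used the mean over all 30 arrays, with a limit of 4.5, and 11 of the 13 probe sets passed it. PLEK (mean 5.33) and 1 dimmer probe set of MSR1 (4.69) had group means under or near that limit outside their high groups. FCGR2B (mean 5.72) was near it on day 11 at 0 h, at 4.55. Passing the limit therefore supports nothing about these 3 probe sets. Whether equal replicate numbers pair animals was checked by correlating their deviations from group means. For day 4 at 0 and 4 h all 5 correlations were over 0.1 (0.15 to 0.21), and each of the other 14 pairs of groups had 1 or more at or below 0.1. Within day 11 all were positive, from 0.06 to 0.23 for 0 and 4 h, with a mean of 0.15. They ran from 0.02 to 0.16 for 0 and 24 h and from 0.01 to 0.16 for 4 and 24 h, with means of 0.09. For day 4 at 0 and 4 h the mean over equal numbers was 0.18. Unequal numbers had means of -0.04 for 0 and 4 h on each day. Their means were -0.02 for the other pairs of day 11 groups. The main fit treated the animals as unpaired. The cause of these correlations was not tested. The labels describe separate animals in a completely random design.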

Additional observations from a re-analysis of the deposited data

Results flagged for a closer look

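The 24 h response was larger on day 11 than on day 4, by the interaction in limma, for 9 of the 13 probe sets, against 10.6% of all probe sets. The difference was 2.23 and 2.79 for the CD14 probe sets, 2.24, 1.12 and 0.90 for those of MSR1, 3.30 for FCGR2B, 2.05 for TYROBP, 2.26 for SPP1 and 2.84 for the brighter probe set of PLEK.

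Single animals stood apart from the other 4 of their group in 2 of 78 sets of values, by Dixon's test at the 95% level, where chance gives about 1 in 20. TYROBP was 6.25 in day 4, 0 h replicate 2 and 6.85 to 7.04 in the others. A dimmer probe set of MSR1 was 5.44 in day 11, 24 h replicate 1 and 6.21 to 6.36 in the others.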

How the results depend on the processing

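The 9 members gave 81 differences over 9 comparisons, and in 9 of these 1 or more alternatives changed the call. The counts of members called on day 11 at 4 h (5) and 24 h (6), from 4 to 24 h on day 11 (4) and for both interactions (0 and 6) stayed the same without any 1 array. On day 4 at 4 h the count of 2 was 1 at an adjusted p under 0.01 and 1 to 3 without 1 array, with 1 without day 4, 4 h replicate 1. On day 4 at 24 h the count of 1 was 0 with the arrays of the comparison alone or an adjusted p under 0.01, and 0 to 1 without 1 array. From 4 to 24 h on day 4 the count of 1 was 2 with the mean of all probe sets and 1 to 2 without 1 array, and the gene gained was CD14 (-0.84, adjusted p = 0.021), also without day 4, 24 h replicate 4 (adjusted p = 0.047) or day 4, 4 h replicate 5 (adjusted p = 0.046).

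With the replicate number as a block, C1QA was called on day 11 at 24 h (0.74, adjusted p = 0.049), also with the arrays of that comparison alone (adjusted p = 0.032), and the block changed no other of the 81 calls. The arrays of a comparison alone also called CD14 between the days at 0 h (adjusted p = 0.038) and SPP1 from 4 to 24 h on day 11 (adjusted p = 0.01). MSR1 was called between the days without day 11, 0 h replicate 5 (adjusted p = 0.048), and FCGR2B was lost on day 11 at 4 h at an adjusted p under 0.01.

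Values near 0 changed sign, with no call either way. On day 4 at 24 h MSR1 was -0.06 with array weights, and from 4 to 24 h it was 0.03 with the mean of its probe sets. The 24 h interaction of C1QA was -0.02 after quantile normalization and -0.01 with array weights. Without 1 array the 24 h interactions ran from -0.18 to 0.18 for C1QA, -0.24 to 0.17 for C1QB and -0.29 to 0.18 for C1QC, and the 4 h interactions from -0.16 to 0.33, -0.30 to 0.37 and -0.41 to 0.20. At 4 h on day 11 they ran from -0.01 to 0.67 for C1QB, -0.05 to 0.56 for C1QC and -0.34 to 0.01 for MSR1, and at 24 h on day 4 from -0.07 to 0.14 for MSR1 and -0.26 to 0.13 for FCGR2B. SPP1 ran from -0.31 to 0.26 between the days at 0 h and from -0.02 to 0.56 from 4 to 24 h on day 4, and C1QB from -0.06 to 0.62 from 4 to 24 h on day 11. The cause of these changes was not tested. Dim signals, as of PLEK at 0 h and of FCGR2B on day 11 at 0 h, limit the size of a fold.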
